A study of Mus musculus with 10 samples.

Results

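RNA that came down with anti-FLAG beads from cells that carry no FLAG tag was compared with and without formaldehyde, in the 5 wild-type (WT) libraries of a series of 10. MEX3A is an RNA-binding protein, and the series measured the RNA recovered with its FLAG-tagged form by immunoprecipitation and sequencing (RIP-seq) from mouse neural stem cells. The cells were neurosphere cultures, free-floating clusters grown with the mitogens EGF and FGF, from the brain subependymal zone of animals aged 10 weeks. The tagged cultures were Mex3aFLAG/FLAG, with the tag knocked into the endogenous gene, and the WT cultures were Mex3a+/+ of the same background, so any RNA on their beads was held without the tag. Every lysate was sonicated in RIPA buffer, cleared on Protein G beads and then held on Protein G beads coupled to the antibody. Crosslinked cells were fixed with formaldehyde before lysis, native cells were not, and proteinase K was applied before the RNA was extracted.

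The WT crosslinked group held 2 libraries (replicates 1 and 2) and the WT native group 3 (replicates 1 to 3), and all 15899 genes of the deposited matrix were read in them. The FLAG libraries, also 2 crosslinked and 3 native, serve below only as a second measure of the same contrast. Values are the deposited log2 values, and a difference is the mean of the crosslinked libraries minus the mean of the native ones. The libraries had been brought to one common distribution before deposit, with linear values of a library summing to between 949427 and 949437. A difference is therefore relative to the other RNAs on the same beads, and less of an RNA on the beads cannot be told apart from more of everything else. No input RNA was analysed here and the sequencing depth of each library is unknown.

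The WT libraries were not alike in ways the protocol does not explain. Xist, transcribed from the inactive X chromosome of females, had log2 values of -0.71 and 10.71 in WT crosslinked replicates 1 and 2, and 3.13, 7.63 and 0.68 in WT native replicates 1 to 3. The Y-linked Uty stood at 7.08 and -2.12 in the crosslinked and at 7.26, 6.12 and 6.98 in the native libraries. WT crosslinked replicate 2 thus carried Xist with almost no Y-linked RNA, WT native replicate 2 carried both, and the other 3 libraries carried mainly Y-linked RNA. Pearson correlations between WT libraries over all genes ran from 0.92 to 0.978. Mex3a itself, untagged here, was at 2.75 and 3.03 in the crosslinked and at 3.33, 3.52 and 2.89 in the native libraries, so the groups overlapped. Of the markers fixed for the cultured cells, 11 of the neural stem cell list were measured, among them Egfr (10.40 to 10.90 over the 5 WT libraries), Slc1a3 (8.26 to 9.10) and Nes (6.85 to 7.92). Markers of other cell types were also read. The 1 oligodendrocyte marker measured was at 1.84 and 1.89 with crosslinking against 0.87, 1.61 and 1.54 without, higher in both crosslinked libraries. The neuroblast marker Sox11 lay between 4.04 and 5.28, and the ependymal marker Foxj1 at 0.23 and 0.01 with crosslinking against 1.77, 1.26 and 0.77 without, lower in both crosslinked libraries. Of the endothelial ones, Pecam1 lay between 0.46 and 0.62 and Flt1 between 0.78 and 3.02, highest in WT crosslinked replicate 2. Of the microglial ones, Csf1r lay between -0.05 and 0.97, Cx3cr1 between 3.94 and 4.18 and P2ry12 between 3.33 and 4.32, above the median gene at 2.89. P2ry12 and Cx3cr1 overlap the gene bodies of Med12l and Wdr48, whose part in these values was not tested.

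Formaldehyde makes covalent bridges between proteins and the RNA or protein next to them, so a crosslinked precipitate can keep complexes that a detergent lysate would otherwise release, and a native one holds what binds or rebinds after lysis. Small nucleolar RNAs (snoRNAs) are short stable RNAs that guide chemical modification of ribosomal and spliceosomal RNA. They live inside tight protein complexes, and most in mammals are cut from introns of longer genes, among them genes for translation factors and ribosomal proteins. Box C/D snoRNAs (Snord) guide 2′-O-methylation with fibrillarin, whereas box H/ACA snoRNAs (Snora) guide pseudouridylation with dyskerin and carry the letters ACA close to the 3′ end. Mitochondrial RNA is transcribed inside the organelle, away from nuclear and cytoplasmic proteins.

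The sequences of 2 snoRNAs called higher with crosslinking, Gm26447 and Gm23262, and of 4 others the results turn on, are given 5′ to 3′ as DNA of the RNA strand, from RefSeq's GRCm38.p6 genome. Capitals mark the ACA nearest the 3′ end within the last 8 bases, which Gm23262 does not hold. Gm26447 lies at chr16:23111301-23111429 (+), Gm23262 at chr7:111076060-111076227 (-), Snora15 at chr5:129794546-129794676 (+), Snora28 at chr12:111540941-111541067 (+), Snora34 at chr15:98519716-98519853 (-) and Gm22988 at chr11:69669635-69669778 (-). The first 5 were higher in the crosslinked libraries and Gm22988 was lower.
Gm26447: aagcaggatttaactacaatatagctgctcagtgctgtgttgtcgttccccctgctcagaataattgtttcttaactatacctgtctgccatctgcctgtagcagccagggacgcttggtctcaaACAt
Gm23262: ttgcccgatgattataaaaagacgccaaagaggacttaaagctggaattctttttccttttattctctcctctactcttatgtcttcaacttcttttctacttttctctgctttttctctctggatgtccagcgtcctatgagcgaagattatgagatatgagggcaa
Snora15: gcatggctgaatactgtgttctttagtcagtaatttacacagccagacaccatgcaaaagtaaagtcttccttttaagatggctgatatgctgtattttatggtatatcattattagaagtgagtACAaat
Snora28: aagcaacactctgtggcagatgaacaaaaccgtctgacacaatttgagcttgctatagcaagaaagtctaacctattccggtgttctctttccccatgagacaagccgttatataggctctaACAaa
Snora34: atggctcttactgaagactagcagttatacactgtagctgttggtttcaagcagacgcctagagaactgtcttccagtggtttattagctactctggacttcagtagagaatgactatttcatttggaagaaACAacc
Gm22988: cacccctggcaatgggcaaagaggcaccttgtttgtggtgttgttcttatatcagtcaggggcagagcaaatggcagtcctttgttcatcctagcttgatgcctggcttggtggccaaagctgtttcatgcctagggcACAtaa
Snora34 overlaps a microRNA entry, Mir1291, whose mature sequence at chr15:98519828-98519853 (-) is the first 26 bases of the snoRNA, printed here with its seed (bases 2 to 8) in capitals.
mmu-miR-1291: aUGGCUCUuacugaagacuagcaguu
Of the 128 snoRNA entries whose sequence was read, 85 (66.4%) held ACA in the last 8 bases, and 24 (18.8%) held TGATGA in the first 15 and CTGA in the last 15 bases, both read on the RNA strand. The same windows held ACA in 1 of 20 snRNA entries and in 6 of 46 miRNA entries, and the pair TGATGA and CTGA in none of either.

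Taken by class, protein-coding gene bodies took 60.6% and 59.2% of the summed linear value in the WT crosslinked libraries and 60.6%, 59.3% and 62.6% in the WT native ones. The 3 highest loci in every library were CT010467.1, Gm42418 and AY036118, on chromosome 17, which collect ribosomal RNA-like reads, and they held 31.4% of the total. They ranked the same in all libraries and so received identical values (16.90, 16.50 and 16.34), so a change at these 3 loci could not be seen in this matrix. The other 5 ribosomal RNA-like loci had differences from 0.09 to 1.49, none of which passed the test. The n-R5s entries, scarce 5S ribosomal RNA-like loci, all lay below 0, from -2.17 (n-R5s193) to -0.9959 (n-R5s216), and in most of them the groups overlapped. By level per kb of exon, Rmrp and Rn7sk, the RNAs of RNase MRP and of the 7SK transcription-control complex, were among the 10 highest genes in the crosslinked libraries, and the mitochondrial ribosomal RNAs mt-Rnr1 and mt-Rnr2 and the snoRNA Gm22988 among the 10 highest in the native ones. The gene body of Cmss1 was in both sets. Values behaved as gene-body sums (below), so dividing by exonic length raises genes with long introns in this ranking.

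The values acted as sums over the whole gene body, introns included, and without regard to strand. In 180 short RNA entries lying inside a longer gene, the longer gene stood at or above the short RNA in 900 of 900 library values, to within 0.15 log2 units, and of 8 gene pairs on opposite strands that covered at least 95% of each other, 7 had values within 0.15 in all 5 WT libraries. Over 12269 protein-coding genes, Spearman's rho between level and gene span was 0.58 to 0.66, against 0.50 to 0.54 for exonic length, as a description across genes, which are not independent replicates. Genes that overlap, antisense pairs included, can therefore not be told apart, and a host gene's value contains its snoRNAs.

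Across all genes, 4 were called higher with crosslinking (0.0252% of those tested) and 2 lower (0.0126%), at a limma adjusted p under 0.05 and a log2 difference beyond 0.58. At an unadjusted p under 0.05 and the same fold, which is what such counts mean throughout, 494 genes were higher (3.11%) and 674 lower (4.24%). The crosslinked libraries lay above all native ones, without overlap, in 2743 genes (17.3%) and below all of them in 1990 (12.5%). The median difference over all genes was 0.02. The called genes were 3 snoRNAs and the gene body that contains one of them, and 2 mitochondrial RNAs. The number called depended on single libraries: without WT native replicate 1, 2 were higher and 0 lower, without WT native replicate 2, 11 and 2, without WT crosslinked replicate 1, 4 and 24, and without WT crosslinked replicate 2, the one with high Xist, 2 and 1. Leaving out a crosslinked library leaves 1, which is then assumed to vary as the native ones do, and this holds for every such value below.

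**Figure D1:**
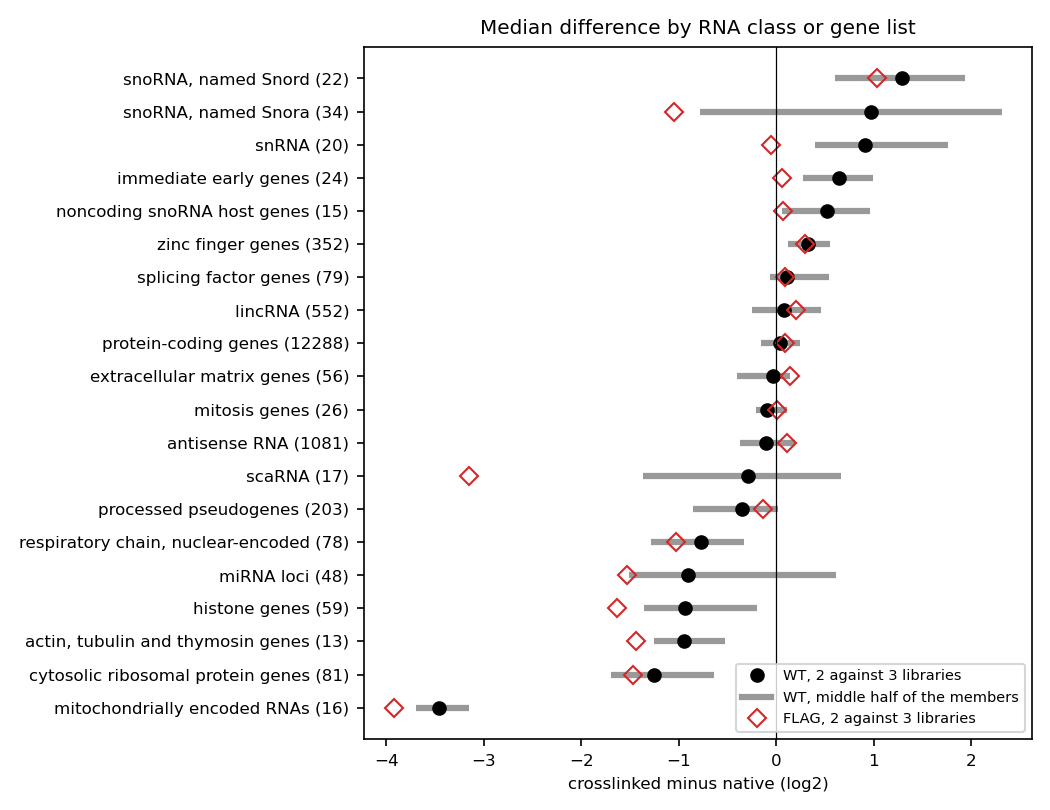
Median log2 difference, crosslinked minus native, of selected RNA classes and gene lists (number of members in brackets). Black points are the WT medians, grey bars span the interquartile range of the members in WT, and red diamonds are the medians in the FLAG libraries; of the lists plotted, mitochondrially encoded RNAs lie lowest at -3.45 in WT and snoRNAs named Snord highest at 1.29, a value that is 0.59 without WT native replicate 2.

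Among gene biotypes with at least 5 entries, snoRNAs had the highest median difference. Of 131 entries, 103 lay above 0, the median difference was 1.14, and 47 were higher and 7 lower at an unadjusted p under 0.05, against the 3.11% and 4.24% of all genes. By library, the class median was 3.09 and 2.90 in the crosslinked and 1.87, 2.30 and 1.18 in the native libraries, so the groups did not overlap. The 3 called members were Gm26447, Gm23245 and Gm23262.
Gm26447, inside Eif4a2, the gene of a translation initiation helicase, had log2 values of 8.0142 and 7.9995 in the crosslinked libraries and 4.42, 4.85 and 4.86 in the native ones. The difference was 3.30 ± 0.16 (SE, limma adjusted p = 0.00689). It was the most abundant of the 3, and both groups were tight.
Gm23245, inside Cct6a, the gene of a subunit of the chaperonin that folds actin and tubulin, had 5.79 and 6.02 with crosslinking and 0.71, 1.26 and 0.92 without, a difference of 4.94 ± 0.21 (SE, limma adjusted p = 0.00629). Gm23262, inside Eif4g2, a translation initiation factor gene, had 6.05 and 6.39 against 1.75, 2.21 and 1.58, a difference of 4.37 ± 0.23 (SE, limma adjusted p = 0.00689). In all 3, the lowest crosslinked library stood more than 3 log2 units above the highest native one. Gm23262 had a limma adjusted p of 0.0514 without WT crosslinked replicate 2 and 0.08 without WT native replicate 1, with its difference between 4.2003 and 4.55 as each library was left out. Without limma's variance trend both it and Gm26447 were at an adjusted p of 0.0507. Gm23245 passed under all settings run.

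Further snoRNAs had large differences without passing the test. Snora15, the other snoRNA inside Cct6a, was at 5.14 and 5.01 with crosslinking and at -2.50, -2.50 and -0.16 without. Its difference of 6.80 (limma adjusted p = 0.0947) was the largest in the matrix, with native values close to the bottom of the scale. Snora34, inside Kansl2 (a subunit gene of a histone acetyltransferase complex), was at 4.01 and 3.98 against -0.30, 0.64 and 0.55 (adjusted p = 0.0606 by limma).
Mir1291, which shares its bases, gave nearly the same values, 3.97 and 3.95 against -0.38, 0.51 and 0.62, so the reads cannot be assigned to the microRNA. Snora28, inside Eif5, was at 3.38 and 3.66 against -0.16, 0.33 and 0.55 (limma adjusted p = 0.0591). Gm22620, inside Taf1d, was at 2.12 and 2.01 against -1.16, -0.47 and -0.55. In each of these the groups did not overlap. Snora81, another snoRNA of Eif4a2, was at 7.03 and 7.42 against 1.94, 4.93 and 1.26, with WT native replicate 2 well above the other native libraries.

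**Figure D2:**
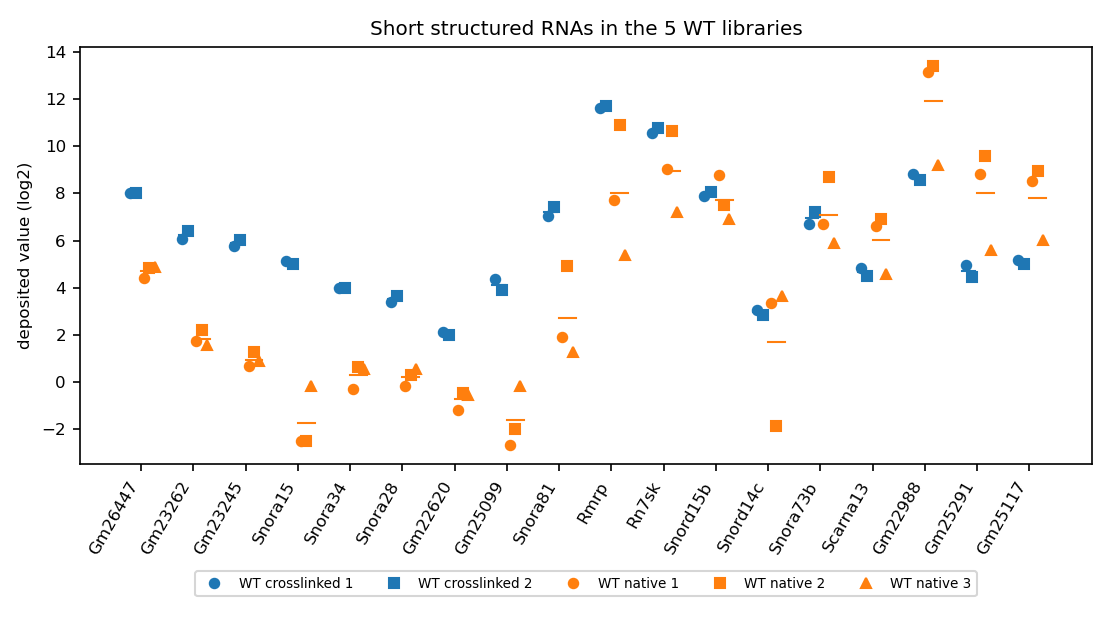
Deposited log2 values of 18 short structured RNAs in the WT libraries (blue, crosslinked; orange, native; lines are group means). Gm26447, Gm23262 and Gm23245 are separated by more than 3 log2 units, whereas native libraries spread widely at Rmrp, Rn7sk, Snord14c and Gm22988.

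The crosslinking difference ran through both snoRNA families but not through all members. Of 22 entries named Snord, 21 lay above 0, with a median of 1.29 and 3 higher and 0 lower at an unadjusted p under 0.05. Their class median by library was 2.68 and 2.01 with crosslinking and 2.18, 0.30 and 1.55 without, so the groups overlapped. WT native replicate 2 was the low library for many of them, and the median difference was 0.59 without it and 1.95 without WT native replicate 1. Snord14c, an intronic snoRNA of the chaperone gene Hspa8, had 3.07 and 2.85 with crosslinking and 3.38, -1.85 and 3.65 without, so 2 of the native libraries exceeded both crosslinked ones. Snord15b, in the ribosomal protein gene Rps3 and the most abundant of the family, had 7.87 and 8.06 against 8.78, 7.49 and 6.93, and the groups overlapped.
Of 34 entries named Snora, 22 lay above 0, with a median of 0.97, and 14 were higher and 2 lower at an unadjusted p under 0.05. Their class median by library was 3.24 and 3.58 with crosslinking and 2.22, 3.13 and 1.43 without, and WT native replicate 3 was the lowest. Snora73a and Snora73b, a pair within Snhg3, showed little difference (0.19 and -0.14). The median rested partly on scarce members: among snoRNA entries with a mean linear value of at least 10 it was 0.29. By sequence, in groups that share a few entries holding both motifs, the median was 1.65 for the 24 entries that hold TGATGA and CTGA (8 higher, 0 lower), 0.97 for the 85 with ACA in the last 8 bases (34 higher, 7 lower) and 0.63 for the 21 with neither (5 higher, 0 lower).

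One group of H/ACA-type copies went the other way. Gm22988, inside Eif4a1, the paralogue of Eif4a2, had 8.84 and 8.56 with crosslinking and 13.16, 13.39 and 9.22 without. Its difference of -3.22 did not pass the test (limma adjusted p = 0.45), and WT native replicate 3 lay close to the crosslinked libraries. Gm25291 (97.2% identical in sequence to Gm22988), Gm23123 (95.1%), Gm24727 (93.8%), Gm24130 (93.4%) and Gm25117 (91.1%) had differences of -3.28, -3.16, -2.58, -3.35 and -2.73, and all 5 were likewise highest in WT native replicates 1 and 2. Reads of such near-identical copies can be placed at any of them, so these 6 entries are uncertain one by one and are not separate evidence.
Gm25835, a different snoRNA of the same host gene Eif4a1, was at 6.94 and 7.03 against 5.77, 5.99 and 3.67, higher with crosslinking. The snoRNA share of the summed linear value, most of it Gm22988 in WT native replicates 1 and 2, did not follow the class median. It was 0.354% and 0.380% with crosslinking and 1.30%, 1.59% and 0.176% without (exact two-sided permutation p = 0.6, where 2 against 3 libraries allow no p below 0.2).

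A host gene's value contains its snoRNAs, but most host genes differed less. The median difference was 1.23 for snoRNAs inside a longer gene and 0.25 for the 83 longer genes holding them. Cct6a, annotated as a processed transcript here, was the fourth gene called higher, at 6.68 and 6.82 against 4.19, 4.64 and 4.15 (difference 2.43, limma adjusted p = 0.0286). That call was lost without WT crosslinked replicate 2 (adjusted p = 0.175 by limma), WT native replicate 1 (0.181) or WT native replicate 3 (0.0695), with the difference between 2.34 and 2.58. On the linear scale its 2 snoRNAs summed to 90.6 and 97.4 in the crosslinked libraries and 1.81, 2.57 and 2.78 in the native ones. The rest of the gene body came to 12.2 and 15.5 against 16.5, 22.3 and 14.968, and so was not higher with crosslinking.
Eif4g2 gave the same picture, with 80.0 and 83.7 outside Gm23262 in the crosslinked libraries and 72.6, 125 and 70.3 in the native ones. In Kansl2, outside Snora34, 15.9 and 19.2 stood above 10.9, 13.2 and 11.8. In Eif4a2, 56.9 and 54.3 stood above 5.41, 33.3 and 2.96 outside its annotated short RNAs. These remainders are differences of normalized values and are approximate.
Of 122 longer genes that contain a short RNA, 18 were higher at an unadjusted p under 0.05 and beyond 0.58, and 14 were lower. Over all genes the shares were 3.11% and 4.24%. After the short RNAs were subtracted, 5 of the 18 were still beyond 0.58 and 4 had changed sign. Of 14 such genes that were lower, 11 were still beyond -0.58 and 2 had changed sign.

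**Figure D3:**
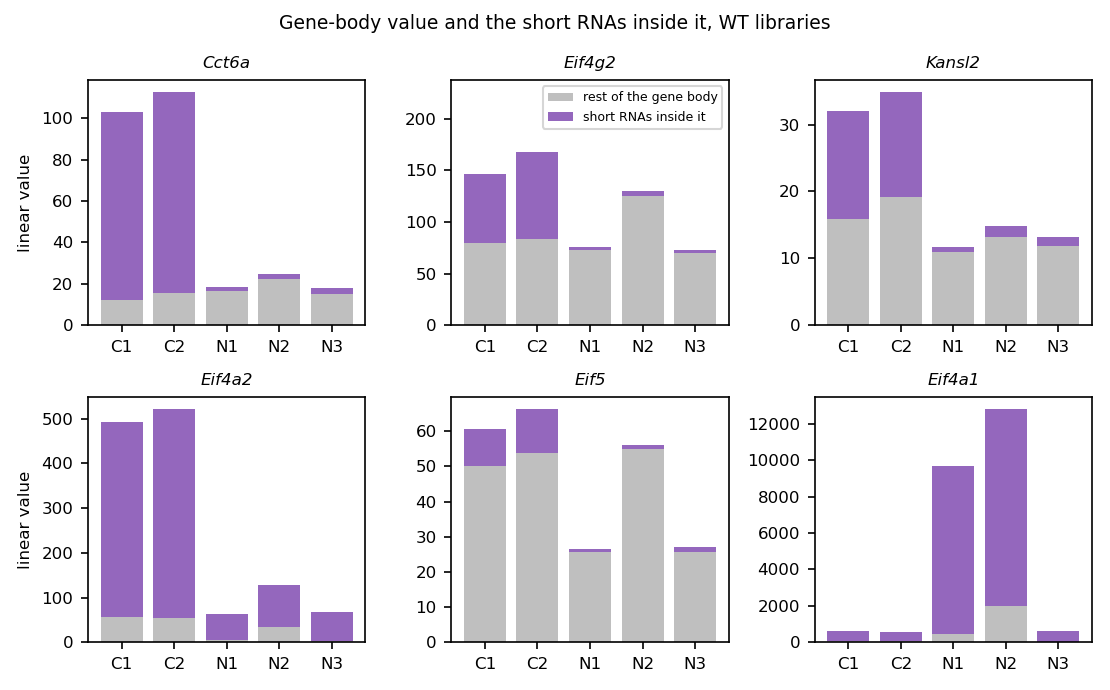
Linear value of 6 host gene bodies in each WT library (C, crosslinked; N, native), divided into the annotated short RNAs inside (purple) and the rest (grey), each panel with its own scale from 0. In Cct6a and Eif4g2 the crosslinked excess is in the snoRNAs, and in Eif4a1 native replicates 1 and 2 rise through Gm22988.

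Other structured RNAs were mixed, and spread widely among the native libraries. Of 7 listed (Rmrp, Rn7sk, Rpph1, Rny1, Rny3, Vaultrc5 and Rn7s2), 5 lay above 0, with a median of 0.49, and 1 was higher at an unadjusted p under 0.05. Rmrp was at 11.63 and 11.72 with crosslinking and 7.72, 10.88 and 5.41 without. The groups did not overlap, but the native libraries differed from each other by more than 5 log2 units and the difference of 3.67 did not pass the test (unadjusted p = 0.044 by limma). Rn7sk was at 10.56 and 10.75 against 9.04, 10.65 and 7.19, where WT native replicate 2 reached the crosslinked level.
The 20 entries of the snRNA biotype had a median difference of 0.91, with 5 higher and 0 lower at an unadjusted p under 0.05. Rnu11 and Rnu12, RNAs of the minor spliceosome, had differences of 2.06 and 2.61, and Rnu2-10 one of 0.40. The scarce Gm25099, listed as an snRNA, stood at 4.36 and 3.91 against -2.68, -1.96 and -0.16 (difference 5.74, limma adjusted p = 0.103). Malat1, the long noncoding RNA of nuclear speckles, was at 13.39 and 13.64 against 10.71, 12.46 and 11.50, higher without overlap (difference 1.96, unadjusted p = 0.00707 by limma). Neat1, the scaffold of paraspeckles, did not share this, at 6.98 and 8.53 against 7.13, 7.77 and 7.78.
Of 15 nuclear long noncoding RNAs listed, 1 was higher and 1 lower at an unadjusted p under 0.05, Malat1 and Peg13. Small Cajal body RNAs (scaRNAs), which guide modification of spliceosomal RNA, were divided. Scarna2 was at 3.15 and 3.59 against 1.55, 2.06 and 0.59, and Scarna13 at 4.85 and 4.49 against 6.61, 6.92 and 4.56. The 17 scaRNA entries, among which Gm25820 and Gm23370 are each listed 2 times, had a median of -0.28, 3 higher and 2 lower, and the 7 entries of any biotype with a Scarna name had one of 0.44, 2 higher and 0 lower. The 48 miRNA loci had a median of -0.90, 5 higher and 13 lower, a median that was 0.26 among loci with a mean linear value of at least 10 and -0.55 without WT native replicate 1.

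Among RNA classes, mitochondrial RNA stood lowest with crosslinking. All 16 mitochondrially encoded RNAs measured, 2 ribosomal RNAs, 7 mRNAs and 7 transfer RNAs, were lower in both crosslinked libraries than in every native one, and 16 of 16 had an unadjusted p under 0.05 in that direction, against 4.24% of all genes. Their median difference was -3.45, with a range from -4.84 to -1.46. As a share of the summed linear value they made up 0.287% and 0.232% with crosslinking and 0.977%, 1.20% and 0.771% without (exact two-sided permutation p = 0.2, the smallest that 2 against 3 libraries allow). The 16 are transcribed from one circular genome as long precursors and are not independent of each other.
mt-Co1, cytochrome c oxidase subunit 1 (chromosome MT, 5328 to 6872), had 5.08 and 4.42 in the crosslinked and 8.62, 8.32 and 8.43 in the native libraries. Its difference of -3.71 ± 0.21 passed the test (SE, limma adjusted p = 0.00841). mt-Tl1, a leucine transfer RNA (chromosome MT, 2676 to 2750), had -1.92 and -1.26 against 2.49, 2.33 and 2.44, a difference of -4.01 ± 0.31 (SE, limma adjusted p = 0.0329). In both, the native libraries lay close together and well above the crosslinked ones. The calls, more than the size of the differences, changed with the library left out. With each library left out in turn, the difference stayed between -4.04 and -3.38 for mt-Co1 and between -4.34 and -3.68 for mt-Tl1, whereas the adjusted p of mt-Co1 by limma was 0.0963 without WT native replicate 1 and 0.0618 without replicate 3, and that of mt-Tl1 was 0.0787 without WT crosslinked replicate 2 and 0.232, 0.0638 and 0.0898 without WT native replicates 1, 2 and 3.
The other mRNAs differed as much but varied more between libraries. mt-Cytb, cytochrome b, was at 5.44 and 4.13 against 8.73, 7.73 and 8.95, and mt-Nd5, a complex I subunit, at 4.90 and 4.04 against 7.99, 7.42 and 8.87. mt-Te, the glutamate transfer RNA, was at -0.61 and -2.97 against 3.73, 1.44 and 3.97, the largest difference of the class (-4.84). WT crosslinked replicate 2 was the lowest library in 15 of the 16, mt-Tl1 being the exception. The ribosomal RNAs, far more abundant than the rest, differed least. mt-Rnr2 was at 10.59 and 10.22 against 12.11, 12.70 and 11.77 (difference -1.79), and mt-Rnr1 at 9.93 and 9.85 against 11.59, 11.84 and 10.62 (difference -1.46).

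**Figure D4:**
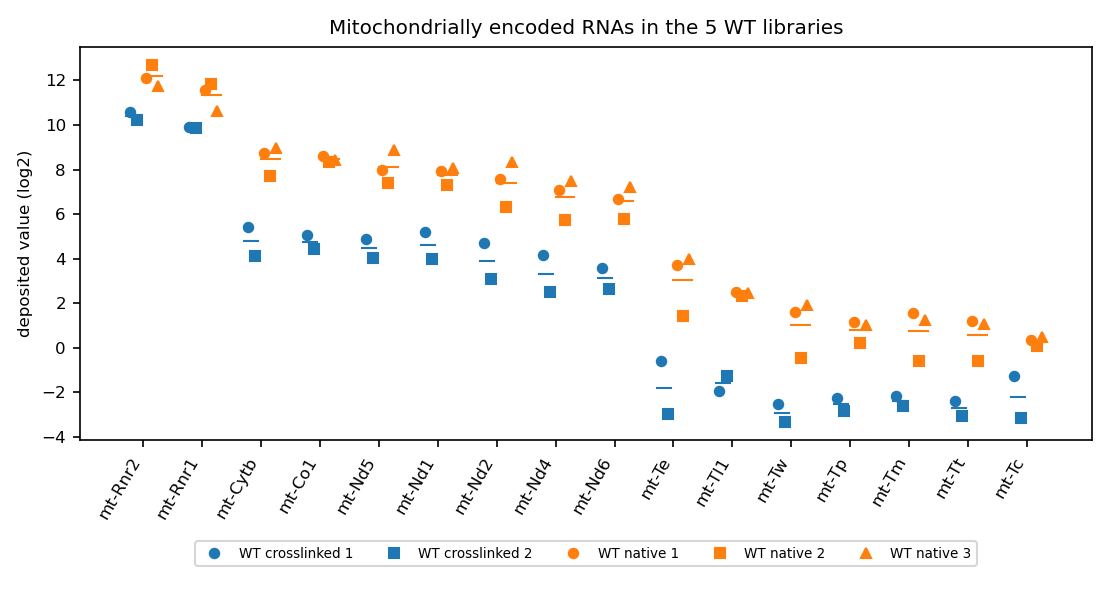
Deposited log2 values of the 16 mitochondrially encoded RNAs in the WT libraries, ordered by native mean (blue, crosslinked; orange, native; lines are group means). The crosslinked libraries lie below every native library in each of the 16, by the least in the ribosomal RNAs mt-Rnr1 and mt-Rnr2.

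Of 81 cytosolic ribosomal protein genes, 62 were lower and 1 higher at an unadjusted p under 0.05, none passed the adjusted test, and the median difference was -1.25. Their median by library was 2.61 and 2.52 with crosslinking and 4.25, 3.71 and 3.74 without, with no overlap. Rplp1, of the ribosomal stalk, was at 2.46 and 2.37 against 5.52, 4.54 and 4.84 (difference -2.55, limma adjusted p = 0.101).
Rpl41, the shortest ribosomal protein, was at 1.62 and 1.55 against 4.37, 3.78 and 3.52, and Rpl7 at 2.65 and 2.71 against 4.89, 4.43 and 4.37. Rps26, Rps15 and Rpl14 had differences of -2.42, -2.02 and -2.00. Rps3, Rpsa and Rps2 were the 3 most abundant gene bodies of the list and had differences of 0.26, 0.71 and 0.26. Each contains snoRNAs, which came to 328 of the 337 linear units of Rps3 in WT crosslinked replicate 1, and outside its snoRNAs Rpsa was at 7.49 and 8.39 against 21.6, 19.971 and 16.9. Among ribosomal protein genes, 19 contain a short RNA.

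Nuclear genes of the respiratory chain followed, with 44 of 78 lower and 1 higher at an unadjusted p under 0.05 and a median of -0.77. Cox6a1, a subunit of cytochrome c oxidase, was at 1.26 and 1.28 against 3.93, 3.69 and 3.24 (difference -2.35, limma adjusted p = 0.0925). Atp5b, the catalytic beta subunit of ATP synthase, was at 4.81 and 4.85 against 5.83, 6.41 and 5.55. Atp5o, by contrast, showed 7.79 and 7.62 against 7.79, 7.76 and 7.81. That entry spans 247290 bases with 1972 exonic nt, so introns or overlapping genes may make up most of its value.
All 13 actin, tubulin and thymosin genes lay below 0, with a median of -0.95, and 7 were lower at an unadjusted p under 0.05. Tmsb4x, thymosin beta 4, was at 4.95 and 4.40 against 6.81, 6.59 and 6.11. Cfl1, the actin-severing cofilin, was at 3.94 and 4.27 against 5.54, 6.14 and 5.26. Actb had a difference of -0.96, with native values from 6.47 to 8.15. Bex2 and Bex3, small X-linked adaptor proteins, were at 0.91 and 1.1574 against 3.27, 2.81 and 3.20, and at -0.21 and 0.07 against 2.53, 2.09 and 2.39.
The 59 histone genes, most of them without introns and without a poly(A) tail, had a median of -0.94, with 16 lower and 0 higher at an unadjusted p under 0.05. Among histone genes with a mean linear value of at least 10 the median was 0.10, of the opposite sign. Hist1h4d was at 2.38 and 2.23 against 4.26, 3.97 and 3.43. The intron-bearing variant genes H2afy and H3f3b did not share it, with differences of 0.20 and 0.14. WT native replicate 3 was the lowest native library for most histone genes, with a class median of 1.24 against 2.47 and 2.20. Processed pseudogenes, intronless copies of such mRNAs, had a median of -0.35, with 33 of 203 lower and 2 higher. That median was -0.63 without WT native replicate 2, -0.059 with a pseudocount of 8 and -0.0542 with the replicate block and the length and GC trends removed. Gm13456 was at 1.56 and 1.43 against 4.00, 3.35 and 3.62, and its reads may come from the parent gene.

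Gene structure tracked these differences across 12269 nuclear protein-coding genes. In 114 genes with an exonic length up to 1000 nt and exons over 20% or more of the gene body, the median difference was -1.16, with 62 lower and 0 higher at an unadjusted p under 0.05. Without the ribosomal protein, respiratory chain, histone and cytoskeletal genes listed above, 63 such genes had a median of -0.90, with 31 lower and 0 higher. Genes of over 4000 exonic nt with exons over more than 50% of the body had a median of 0.21 (45 of 643 higher, 25 lower). Over all genes, 3.11% were higher and 4.24% lower. In FLAG the median of these long genes was -0.09, of the opposite sign, whereas the 114 short genes stood at -1.62. Where exons made up under 5% of the gene body, so that most reads would be intronic, medians lay between -0.03 and 0.03 at every exonic length. In FLAG these lay between 0.20 and 0.26, against 0.11 over all genes. At 5 to 20% exonic, genes of up to 1000 exonic nt had a WT median of -0.22, with 2 higher and 19 lower of 80. Fragment lengths were not analysed here, and their part in this pattern was not tested.

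**Figure D5:**
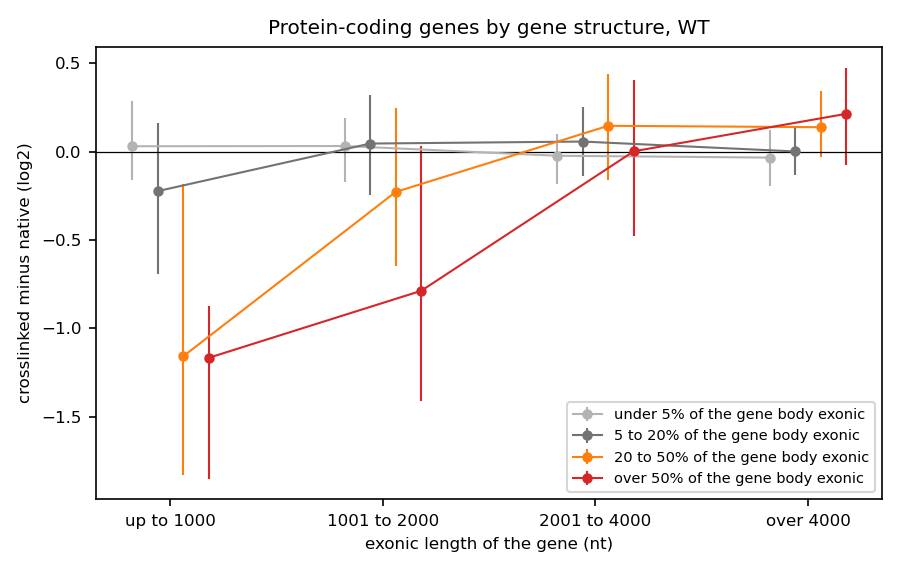
Median log2 difference, crosslinked minus native, of nuclear protein-coding genes by exonic length and by the share of the gene body that is exonic in GENCODE M21; bars span the interquartile range of the genes. Medians fall to -1.16 and -1.17 in the shortest exon-rich genes and stay close to 0 where exons make up under 5% of the gene body. In genes of up to 1000 exonic nt at 5 to 20% exonic the median is -0.22.

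Of 352 zinc finger genes, mostly transcription factors with a long last exon, 48 were higher and 1 lower at an unadjusted p under 0.05, none passed the adjusted test, and the median was 0.33. Immediate early genes, induced within minutes by growth factors or stress, had a median of 0.64 with 2 of 24 higher. Their median by library was 1.67 and 1.93 with crosslinking and 1.67, 2.25 and 0.81 without, so the groups overlapped and WT native replicate 3 alone lay low, and in FLAG the median was 0.06 with 0 higher and 3 lower. Fos was at 4.59 and 4.96 against 3.69, 4.70 and 2.32, and Egr1 at 6.19 and 6.12 against 5.65, 6.32 and 5.03, so both overlapped. Nr4a2 and Fosl1 were the 2 members with an unadjusted p under 0.05.
Splicing factor genes had a median of 0.11 with 10 of 79 higher and 5 lower, and Ptbp2, a neural splicing regulator, was at 7.67 and 7.52 against 7.11, 7.26 and 7.02. Lists that stayed near the value of all genes were mitosis (median -0.10, 0 of 26 in either direction), DNA replication (-0.04, 0 higher and 2 lower of 45) and extracellular matrix (-0.03, 0 higher and 2 lower of 56). Translation initiation and elongation factors, several of which host snoRNAs, had 3 higher and 8 lower of 64 (median -0.06). Cytosolic chaperones had 5 of 15 lower, with Hspa8 at 5.55 and 5.20 against 6.24, 6.06 and 6.05, and ER chaperones had 0 of 15 in either direction.

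The FLAG libraries gave the same contrast in samples that the WT comparison did not use. There, 3 genes were called higher (0.0189%) and 8 lower (0.0503%), and 453 (2.85%) and 937 (5.89%) were higher and lower at an unadjusted p under 0.05. Gm23262 was called in both genotypes, at 5.43 and 6.32 in FLAG crosslinked and 1.22, 1.82 and 1.30 in FLAG native libraries (limma adjusted p = 0.0185). mt-Tl1 was also called in both, with a FLAG difference of -5.37 (limma adjusted p = 0.0381). Gm23245, Gm26447, Cct6a and mt-Co1 had FLAG differences of 4.25, 2.88, 1.46 and -4.73, in the same direction as WT, without passing the adjusted test in FLAG.
Malat1, at 1.95 in FLAG and 1.96 in WT, and Gm22988, at -4.62 and -3.22, passed in FLAG and not in WT, and the test between genotypes gave them unadjusted p values of 0.989 and 0.352 by limma. The class medians lay close together for mitochondrial RNAs (-3.92 in FLAG, -3.45 in WT), ribosomal protein genes (-1.47, -1.25), zinc finger genes (0.29, 0.33) and Snord entries (1.03, 1.29). They were of opposite sign for Snora entries (-1.05 in FLAG, 0.97 in WT), and scaRNA entries were at -3.15 in FLAG and -0.28 in WT, whereas the 7 entries with a Scarna name were at 0.61 and 0.44. The snRNA entries were at -0.05 in FLAG and 0.91 in WT, and the 7 other structured RNAs at -1.23 and 0.49. Over all 131 snoRNA entries, 31 were higher and 27 lower in FLAG at an unadjusted p under 0.05, against 47 and 7 in WT. FLAG values include RNA held by MEX3A, and the class medians were not tested against each other. In the test of the difference between genotypes, 0 genes passed (0%) by limma at an adjusted p under 0.05, and 68 genes (0.428%) had an unadjusted p under 0.05. mt-Rnr2 (unadjusted p = 0.00855 by limma) and mt-Rnr1 (0.0351), whose differences were larger in FLAG, were among the 68, as were Snora34 and Mir1291 (0.0284 and 0.029).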

How the data were processed

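Per the labels and methods, reads were checked with FastQC, trimmed with cutadapt and Trimmomatic, aligned by HISAT2 against GRCm38 (mm10), and summed over genes using featureCounts. Random primers were used without poly(A) selection. The authors deposited 1 matrix of filtered, normalized log2 values, which hold no counts, so no count model was fitted. The methods normalized raw counts with a count-model package, but the 3 highest values are identical in all libraries and the distributions match, as quantile normalization would leave them; which step made the deposited values is not given in the sources used here. Columns were matched to samples by title. The members and gene lists were chosen with earlier results of these data known.

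WT crosslinked (2) and WT native (3) libraries were compared with limma 3.58.1 in R 4.3.3 (lmFit, eBayes with trend), with Benjamini-Hochberg adjustment over 15899 genes. Calls needed an adjusted p under 0.05 and a log2 difference beyond 0.58. The fit was tested on simulated data. The methods call the cultures biological replicates and treat each immunoprecipitation as an independent experiment, without naming the animals behind each library, so p-values measure the spread between these libraries. Lists are described by counts and medians. Linear values are 2 to the power of the deposited value. Shares were compared by exact two-sided permutation over libraries. Gene models came from GENCODE M21 (15864 of 15899 genes found, 14849 with the same start and end), sequences from RefSeq. Genes named were, per direction, the 12 called or of smallest p without overlap, the 4 highest members of each list or biotype, the 10 highest per kb of exon, Mex3a and sex-linked genes; other members of a class were named after their values were seen. Alternatives covered pseudocounts, filters, scalings, weights, the replicate block, length and GC trends, and each library left out. Depth is unknown and limits scarce RNAs. One sequence is not reported here.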

Additional observations from a re-analysis of the deposited data

How the results depend on the processing

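With 5 libraries the counts of called genes moved with many settings, and the causes were not tested. The main counts were 4 higher and 2 lower. Higher genes numbered 9 with a pseudocount of 1, 12 with a pseudocount of 8, 7 when centred on protein-coding genes, 1 without the variance trend, 7 with a robust fit, 50 with array weights and 7 in 1 fit of the 4 groups. Lower genes numbered 1 at a mean linear value of at least 10, 0 without the trend, 152 with array weights and 46 in the fit of the 4 groups. Array weights favoured WT native replicate 1 and gave WT native replicate 2 the least. With each library left out in turn, 2 to 11 were higher and 0 to 24 lower. With the replicate number as a block, 27 were higher and 115 lower, and 46 and 189 with the length and GC trend also removed; the labels do not tie replicate numbers across protocols to a shared culture, though the methods ran both protocols in parallel. Deviations from the group means correlated at 0.30 for the replicates numbered 1 and 0.39 for those numbered 2. WT crosslinked replicate 1 also correlated at 0.23 with WT native replicate 3. The deviations of the 2 crosslinked libraries mirror each other, so these values are not independent and cannot decide the pairing. Xist was highest in both replicates 2, but those 2 differed in Y-linked RNA. Whether the numbers mark shared cultures is unknown. The 24 single genes followed were those called and those of the next smallest p, all without overlap between crosslinked and native libraries. They kept their direction in all 445 values under alternatives, with 16 calls lost and 84 gained. Leaving out a library or adding a pseudocount cannot reverse a difference without overlap, so the kept direction was largely fixed by this choice. It is therefore no measure of robustness.

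Medians shrank with a pseudocount of 8 or a filter, since part of each class is scarce. For snoRNAs the median was 0.64 with a pseudocount of 1, 0.24 with 8 and 0.29 at a linear mean of at least 10. With a pseudocount of 8 it was 0.20 for Snord and 0.25 for Snora entries, -0.12 for miRNA loci, -0.61 for ribosomal protein, -0.31 for respiratory chain and -0.18 for histone genes, -0.059 for processed pseudogenes and 0.12 for zinc finger genes. Mitochondrial RNAs stood at -2.53 with a pseudocount of 1 and -1.62 with 8. At a linear mean of at least 10, Snora entries stood at 0.19, respiratory chain genes at -0.51, and 2 medians reversed: miRNA loci to 0.26 and histone genes to 0.10. Processed pseudogenes stood at -0.0542 with the block and length and GC trends, and between -0.63 and -0.2488 with each library left out, lowest without WT native replicate 2. Leaving out genes that contain a short RNA, or keeping 1 entry per overlapping set of short RNAs, both chosen after seeing the data, moved no median by more than the spread between libraries. Without FLAG native replicate 2, 1 gene (Creb1) passed the test between genotypes; the other alternatives gave 0.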
